A study of Mus musculus with 18 samples.

Results

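The 10 genes described here encode the enzymes that turn glucose 6-phosphate into lactate, 1 gene for each step: Gpi1, Pfkm, Aldoa, Tpi1, Gapdh, Pgk1, Pgam2, Eno3, Pkm and Ldha. They were taken by symbol from the deposited expression table of 12558 genes, where all 10 had a row, and all 10 passed the filter on low values. The data are 18 RNA-seq libraries of mouse skeletal muscle in 6 groups of 3. WT-NC were wild-type mice on normal chow, and WT-NC-AQ were wild-type mice on chow that were given AQ, a compound the labels do not spell out, in their drinking water. WT-HFD and WT-HFD-AQ were wild-type mice on a high-fat diet (HFD) without and with AQ. HFD-Nurr1-mTg mice carried a Nurr1 transgene and were fed HFD, and HFD-WT were their wild-type controls on the same diet. Diets lasted 10 weeks in every group. The sources used here give neither the promoter of the transgene nor the number of transgenic lines, the muscle taken, sex or age.

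Glycolysis runs in the cytosol and yields ATP without oxygen, and fast muscle fibres hold large amounts of its enzymes. Its first part spends ATP: GPI turns glucose 6-phosphate into fructose 6-phosphate, the muscle phosphofructokinase PFKM adds a second phosphate in the main regulated step, and aldolase A splits the sugar into triose phosphates that TPI interconverts. Its later part recovers ATP: GAPDH makes NADH, PGK1 and pyruvate kinase (Pkm) make ATP, the muscle mutase PGAM2 and the muscle enolase ENO3 act between them, and LDHA reduces pyruvate to lactate. NURR1, the product of Nr4a2, is an orphan nuclear receptor that binds DNA. Gapdh is also widely used as a reference gene.

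On GRCm38, Gpi1 lies on chromosome 7 from 34201330 to 34230336, Pfkm on chromosome 15 from 98092589 to 98132451, and Aldoa on chromosome 7 from 126795234 to 126800751. Tpi1 lies on chromosome 6 from 124810586 to 124814296, and Gapdh follows on the same chromosome from 125161715 to 125166467. Pgk1 lies on the X chromosome from 106187100 to 106203699, Pgam2 on chromosome 11 from 5801640 to 5803733, and Eno3 on chromosome 11 from 70657202 to 70662513. Pkm lies on chromosome 9 from 59656368 to 59679375 and Ldha on chromosome 7 from 46841475 to 46855627. The table has 1 row per gene symbol and does not separate transcripts, such as the alternative forms of Pkm.

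Libraries held 10404895 to 16082994 reads, recovered from the deposited values, which are read counts scaled by a factor per library (CPM below). The 10 muscle-defining genes chosen for a check of the tissue all had rows and were all tested. Nr4a2 was at 18.8, 30.1 and 19.8 CPM in the transgenic libraries and at 1.86, 2.30 and 1.57 CPM in their controls. No pair of libraries of a group agreed within sampling noise. Libraries of a group carry numbers as biological replicates in the labels, which say nothing of shared days, cages or litters.

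Per kilobase of transcript, Aldoa stood first with a mean of 8688 CPM per kb over the 18 libraries. Eno3 followed with 4139, Pgam2 with 2575 and Pfkm with 1700 CPM per kb. Ldha (1267), Pkm (1004) and Tpi1 (993 CPM per kb) lay close together, and their ranges over the libraries overlapped. Gpi1 lay at 214 CPM per kb. The 8 genes named so far were among the 160 genes with the most CPM in the table, with Aldoa in place 9. The remaining 2, Pgk1 with 23.2 and Gapdh with 3.50 CPM per kb, lay far below their neighbours in the pathway. Gapdh held only 36 to 168 reads per library and stood in place 9528 of 12558 by CPM.

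**Figure D1:**
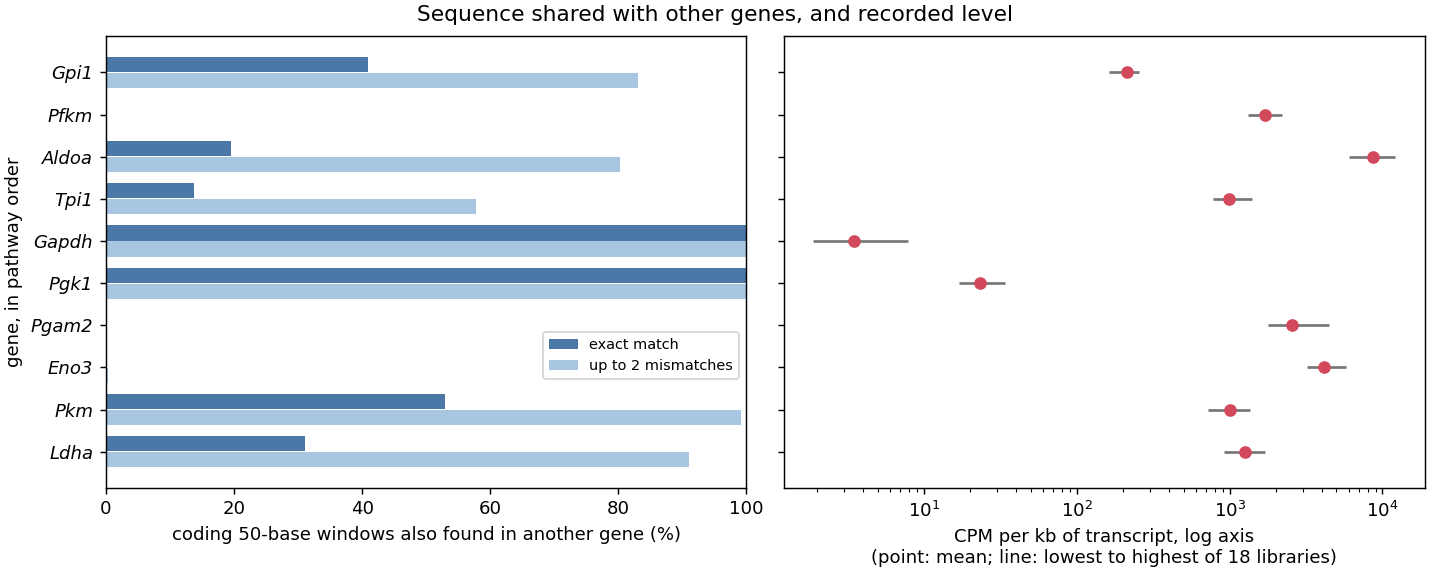
Left: for each gene, in pathway order, the share in percent of 50-base windows of its coding sequence that also occur in another annotated gene, exactly (dark) or with up to 2 mismatches (light). Right: its level in CPM per kb on a log axis, as the mean (point) and the lowest to highest of 18 libraries (line). All coding windows of Gapdh and Pgk1 occurred in other genes, and these were the 2 genes with the lowest recorded level.

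The low values of Gapdh and Pgk1 went with sequence that other genes share. Each of the 950 windows of 50 bases, the read length, in the coding sequence of Gapdh had an exact copy in at least 1 other gene of the GENCODE mouse annotation, as did all 1202 coding windows of Pgk1. The Gapdh windows were spread over 224 other genes and the Pgk1 windows over 5. Annotated pseudogenes count as genes here. Over the whole transcript, 219 of the 241 other genes with exact copies of Gapdh windows were pseudogenes, as were all 5 of Pgk1. Over the whole transcript, 239 of 1371 windows of Gapdh and 568 of 1776 of Pgk1 occurred in no other gene. A coding window of each is printed here to show what a read of this length would look like. The Gapdh window, bases 655 to 704 of the transcript, occurred exactly in 84 other genes, and the Pgk1 window, bases 1078 to 1127, in 3.
Gapdh: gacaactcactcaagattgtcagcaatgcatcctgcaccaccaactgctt
Pgk1: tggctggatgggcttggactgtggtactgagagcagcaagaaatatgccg
How reads that match several genes were counted is not given in the sources used here, and the part of shared sequence in these levels was not tested. For Gapdh and Pgk1 the values are those of the reads that were assigned to these symbols, and they are not read as the level of the enzymes' mRNA.

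The other 8 genes shared less. Pfkm and Pgam2 had no coding window in another gene even with up to 2 mismatches, and Eno3 had 0.40%. Exact copies covered 13.8% of the coding windows of Tpi1, 19.5% of Aldoa, 31.1% of Ldha, 40.9% of Gpi1 and 52.9% of Pkm. With up to 2 mismatches the shares were 57.8%, 80.4%, 91.0%, 83.1% and 99.2%. Some of these copies had rows of their own, and they are named after their values were seen. Aldoart1 and Aldoart2, processed copies of Aldoa known from testis, together held 5.87% to 6.54% of the CPM of Aldoa in each of the 18 libraries. Gm13315, a copy of Ldha, held 0.709% to 0.867% of the CPM of Ldha. These shares were narrow across all groups. Reads of Aldoa and of its copies could be split in unknown ways, and Aldoa, Aldoart1 and Aldoart2 are therefore given as uncertain.

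Where the same step has other isoforms, the muscle form took most of the level recorded for the isoforms with rows. Of 14 such isoform genes listed, 5 were analysed, Pfkl, Pfkp, Eno1b, Eno2 and Ldhb, and 9 were not analysed here, among them Eno1, the main enolase outside muscle, and Pgam1. Per kilobase, Pfkm was 99.4% to 99.8% of the 3 phosphofructokinase genes and Eno3 at least 99.97% of Eno3, Eno1b and Eno2 in every library. Pfkl lay at 9.18 to 19.3 CPM, Pfkp at 3.98 to 11.6 CPM, Eno1b at 0.462 to 1.73 CPM and Eno2 at 0.141 to 1.39 CPM. Lactate dehydrogenase was less one-sided. Ldhb, the heart-type subunit, lay at 73.7 to 170 CPM, and Ldha made up 91.7% ± 3.0 (SD, n = 3) of Ldha and Ldhb in WT-NC, 93.2% ± 0.78 in WT-NC-AQ, 93.2% ± 0.81 in WT-HFD, 90.8% ± 1.5 in WT-HFD-AQ, 93.8% ± 1.2 in HFD-WT and 96.1% ± 0.68 in HFD-Nurr1-mTg. The 3 transgenic libraries, at 95.4% to 96.8%, lay above all others, of which the highest was at 94.7%.

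RefSeq start-site windows of 300 bases (250 before to 50 after the start, GRCm38.p6) were found for all 10 genes, 17 windows in all. Which start was used in these muscles is not known from the table. The motif AAAGGTCA, known as the NBRE that NURR1 and its relatives bind, occurred in 0 of 17 windows on either strand, against 1.51% of all 32817 windows of this kind. ACGTG, the core of hypoxia response elements and of the E-box CACGTG, which holds it on both strands, occurred in 8 of 17 windows from 6 genes, against 19.6% of all windows. CAGCTG, an E-box that myogenic factors bind, occurred in 5 windows from 5 genes, Gpi1, Aldoa, Pgam2, Eno3 and Pkm (16.3% of all), GGGCGG, the GC box, in 7 windows from 6 genes (35.6%), and TATAAA in 0 (13.6%). Windows of 1 gene overlap in Pfkm and Aldoa, so they are not separate counts. The windows of 3 genes are printed to show these letters. Pgam2 and Eno3 are the muscle isoforms with 1 start each and little or no shared sequence, and Ldha has the window with the most ACGTG matches of the 17. Capitals mark the motifs with matches, on either strand.
Pgam2, chr11:5803747-5804046, minus strand: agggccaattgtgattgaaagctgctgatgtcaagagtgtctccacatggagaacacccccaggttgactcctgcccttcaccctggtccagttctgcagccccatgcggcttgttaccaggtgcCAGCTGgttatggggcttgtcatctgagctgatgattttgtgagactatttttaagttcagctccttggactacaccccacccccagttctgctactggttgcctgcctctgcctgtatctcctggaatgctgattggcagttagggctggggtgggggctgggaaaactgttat
Eno3, chr11:70656926-70657225, plus strand: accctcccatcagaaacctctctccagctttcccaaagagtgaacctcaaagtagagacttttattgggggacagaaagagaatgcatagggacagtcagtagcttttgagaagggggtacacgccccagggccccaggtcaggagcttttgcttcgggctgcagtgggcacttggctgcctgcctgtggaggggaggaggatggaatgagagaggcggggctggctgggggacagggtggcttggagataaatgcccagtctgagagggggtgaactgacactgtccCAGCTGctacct
Ldha, chr7:46845554-46845853, plus strand: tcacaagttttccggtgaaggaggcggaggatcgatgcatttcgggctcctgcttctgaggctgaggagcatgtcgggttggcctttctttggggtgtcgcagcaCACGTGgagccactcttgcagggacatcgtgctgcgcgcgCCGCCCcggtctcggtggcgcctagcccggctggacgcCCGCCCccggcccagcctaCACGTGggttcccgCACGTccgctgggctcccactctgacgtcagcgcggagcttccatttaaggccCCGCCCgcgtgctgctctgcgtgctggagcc
Pgam2 has CAGCTG at position -125 and Eno3 at 38, counted from the start site as 0, and neither has ACGTG. The Ldha window has 5 ACGTG matches, at -145, -144, -48, -47 and -34, and 3 GGGCGG matches, at -105, -67 and 19. The matches at -145 and -144 are a single CACGTG read on both strands, as are those at -48 and -47. A match describes the letters only, and no binding was measured.

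Across the 6 groups the summed CPM of the 10 genes followed an order with HFD-Nurr1-mTg alone at the top. Its libraries held 42806, 45269 and 45806 CPM. WT-NC-AQ held 34951, 34283 and 34161 CPM, HFD-WT 29930, 36529 and 35788 CPM, and WT-NC 26321, 34159 and 33686 CPM. WT-HFD held 33635, 30572 and 26053 CPM, and WT-HFD-AQ was last with 26071, 28749 and 26028 CPM. The transgenic libraries overlapped with no other group, whereas every other pair of neighbours in this order overlapped. As a share of recovered reads the 10 genes took 4.34% to 4.55% in transgenic muscle and 2.67% to 3.47% in the other 15 libraries. Aldoa weighs most in such sums. In bulk tissue, a smaller share of a cell type and less RNA per cell cannot be told apart.

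**Figure D2:**
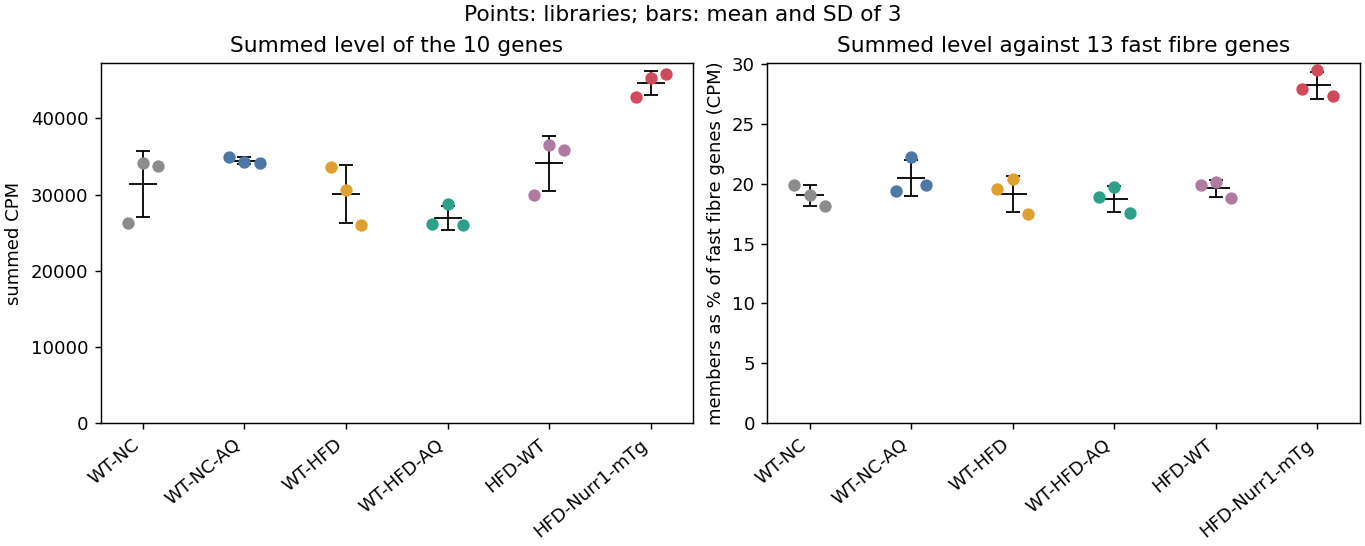
Left: the summed CPM of the 10 genes in each of 18 libraries (points) by group, with the mean and SD of 3. Right: the same sum as a percent of the summed CPM of 13 fast fibre genes. The HFD-Nurr1-mTg libraries lie at 42806 to 45806 CPM and at 27.3% to 29.5%, above all other libraries on both axes.

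Single libraries also stood apart within their groups. WT-NC replicate 1 was low for the whole set, with a median deviation of -0.35 on the log2 scale from each gene's mean, against 0.06 and 0.02 in replicates 2 and 3. WT-HFD replicate 3 stood at -0.32 against 0.09 and -0.07, and HFD-WT replicate 1 at -0.14 against 0.20 and 0.11. The transgenic libraries stood at 0.35, 0.49 and 0.45. In the map of deviations these low libraries appear as columns, since the genes deviated together.

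**Figure D3:**
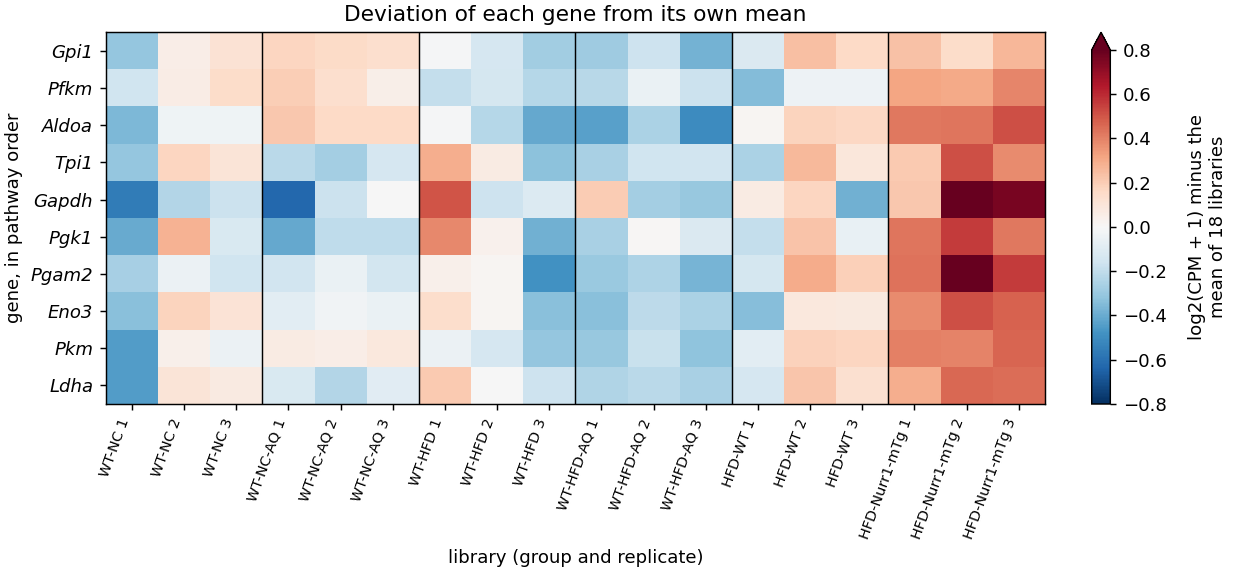
Each cell is log2(CPM + 1) of a gene (row, pathway order) in a library (column) minus that gene's mean over 18 libraries, with red above and blue below 0 and values past 0.8 drawn in the darkest red. The 3 HFD-Nurr1-mTg columns are red in every row, and WT-NC replicate 1, WT-HFD replicate 3 and WT-HFD-AQ replicate 3 are blue in every row.

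Transgenic muscle was compared with its controls on HFD to ask what the Nurr1 transgene does to these genes. All 10 genes had a higher mean in HFD-Nurr1-mTg, where 49.7% of the 12524 genes tested did, by 8.29% (Gpi1) to 85.4% (Gapdh). None of the 10 passed an adjusted p of 0.05 (limma on log2(CPM + 1), Benjamini-Hochberg over all genes tested), which 0.599% of all genes did. At an unadjusted p under 0.05 stood 9 of 10, against 8.95% of all genes. In 8 of 10 the 3 transgenic libraries lay above all 3 controls, which held for 6.99% of all genes. The median log2 fold change of the 10 genes was 0.41, beside -0.00090 for all genes.

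In the part of the pathway that spends ATP, Pfkm lay at 6041, 5968 and 6353 CPM in transgenic muscle and at 3809, 4703 and 4711 CPM in its controls. The groups did not overlap. Its log2 fold change was 0.48 ± 0.12 (SE), and of the 10 genes it had the smallest limma adjusted p, 0.0853. Aldoa lay at 17180, 17296 and 18373 CPM against 12994, 14529 and 14422 CPM, again without overlap, with a log2 fold change of 0.33 ± 0.16 (limma adjusted p = 0.540). Gpi1 and Tpi1 were the exceptions, and their groups overlapped. Gpi1 lay at 721, 678 and 736 CPM against 565, 722 and 684 CPM (0.12 ± 0.11 on the log2 scale, limma adjusted p = 0.853). Tpi1 lay at 1812, 2247 and 2037 CPM against 1318, 1881 and 1674 CPM (0.33 ± 0.16, limma adjusted p = 0.554).

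In the part that recovers ATP, all 6 genes were free of overlap. Pgam2 lay at 2846, 3733 and 3104 CPM in transgenic muscle and at 1904, 2577 and 2402 CPM in controls, a log2 fold change of 0.49 ± 0.14 (limma adjusted p = 0.156). Eno3 lay at 8265, 9085 and 8822 CPM against 5023, 6755 and 6727 CPM (0.51 ± 0.16, limma adjusted p = 0.227). Both code for muscle isoforms. Pkm lay at 3185, 3160 and 3316 CPM against 2272, 2737 and 2713 CPM (0.33 ± 0.12, limma adjusted p = 0.352). Ldha lay at 2694, 3030 and 3000 CPM against 2005, 2571 and 2412 CPM (0.33 ± 0.14, limma adjusted p = 0.464). In both genes the lowest control was replicate 1. Gapdh lay at 5.62, 11.2 and 8.62 CPM against 4.94, 5.40 and 3.36 CPM (0.74 ± 0.24, limma adjusted p = 0.243), and Pgk1 at 56.0, 61.4 and 55.7 CPM against 36.02, 48.6 and 39.6 CPM (0.48 ± 0.17, limma adjusted p = 0.339). The limits on Gapdh and Pgk1 given above hold here too, and without these 2 genes the median of the remaining 8 was 0.33.

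The exact two-sided permutation p was 0.1 for each of the 8 genes without overlap, the smallest that 3 libraries against 3 can give. With CPM rescaled to an equal sum in each library, Pfkm, Pgam2 and Eno3 passed the threshold (limma adjusted p = 0.00467, 0.0483 and 0.0434), and with DESeq2 on the recovered reads the same 3 genes passed (adjusted p = 0.00015, 0.0357 and 0.0361). With edgeR on the same reads none of the 10 passed. Over the whole table DESeq2 called 171 genes, against 75 in the fit reported. Without HFD-WT replicate 1, the low control, the median of the 10 genes was 0.32.

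**Figure D4:**
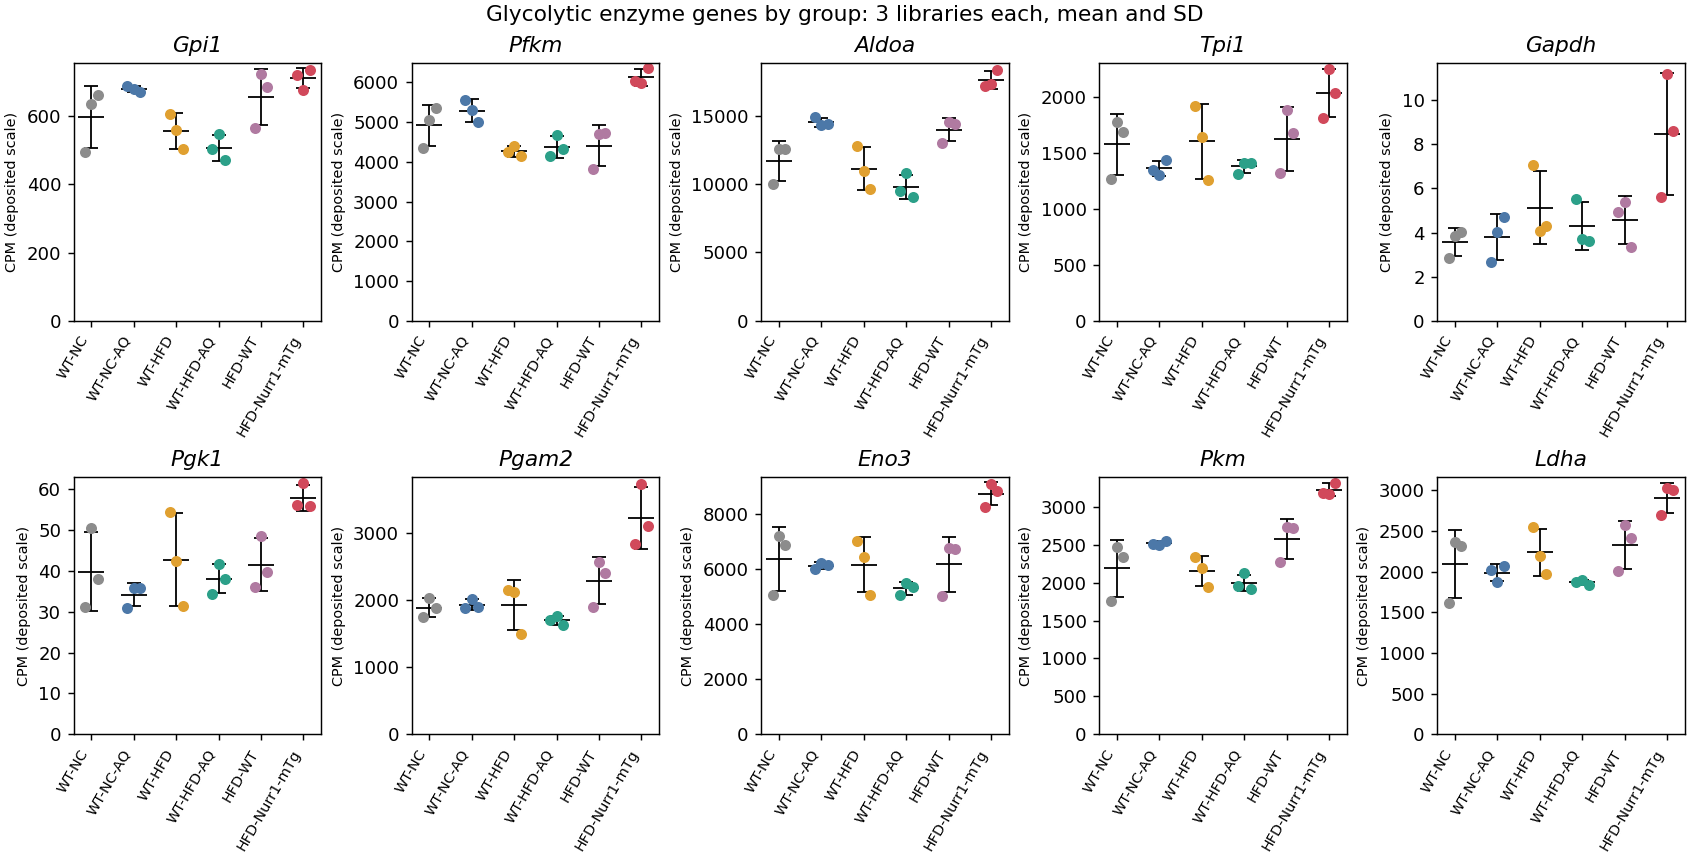
CPM of each gene in the 3 libraries of each group (points), with the mean and SD (bars). HFD-Nurr1-mTg has the highest mean in every panel, and its points overlap with those of HFD-WT in Gpi1 and Tpi1.

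The fast fibre genes, which code for the fast isoforms of contractile and calcium-handling proteins, were not higher as a group. Of 13 such genes 3 had a higher mean in transgenic muscle and none passed the threshold, with a median log2 fold change of -0.09. The summed CPM of the 10 glycolytic genes was 28.2% ± 1.1 (SD, n = 3) of that of the fast fibre genes in HFD-Nurr1-mTg and 19.6% ± 0.71 in HFD-WT. In the wild-type groups it was 19.04% ± 0.89 in WT-NC, 20.5% ± 1.5 in WT-NC-AQ, 19.2% ± 1.5 in WT-HFD and 18.7% ± 1.1 in WT-HFD-AQ. The 15 libraries without the transgene stayed between 17.5% and 22.2%. Slow fibre genes had a median of -0.11, with 5 of 11 above 0, and the muscle-defining genes one of -0.14, with 2 of 10 above 0.

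Markers of other cells and states are given beside these values, and their part in the result was not tested. Leukocyte markers had 9 of 9 tested genes (12 listed) above 0 with a median of 0.29, and their summed level was 144 to 173 CPM in transgenic muscle and 111 to 184 CPM in controls. The leukocyte genes Adgre1, Cd3e and Cd79a were not analysed here, and no marker with a row was at 0 in all libraries of a group. Nerve and Schwann cell markers had 0 of 7 above 0 with a median of -0.42, at 170 to 235 against 203 to 343 CPM. Immediate early genes, which respond to handling and activity, had 1 of 16 above 0 with a median of -0.68, at 299 to 393 against 555 to 653 CPM. Adipocyte markers had 3 of 10 above 0 and a median of -0.04, at 1035 to 1207 against 1081 to 1520 CPM. Endothelial markers had 6 of 10 and 0.05, at 543 to 564 against 489 to 573 CPM. Matrix genes of fibroblasts had 6 of 10 and 0.03, at 2562 to 3448 against 2618 to 4348 CPM, and heat shock genes 5 of 12 and -0.01, at 1171 to 1185 against 1107 to 1309 CPM. Of these markers, 1 immediate early gene passed the threshold, lower in transgenic muscle, and none of the others did. In leukocyte markers HFD-WT replicate 1 stood apart, with a median deviation of 0.50 on the log2 scale. Replicates 2 and 3 stood at -0.18 and -0.16. In matrix genes the 3 controls stood at 0.80, 0.29 and 0.18, and in adipocyte markers at 0.82, 0.26 and 0.12. In heat shock genes they stood at -0.05, 0.005 and -0.003. A clock score, log2 of Arntl minus log2 of Dbp, was -3.28 to -2.96 in transgenic and -1.93 to -1.43 in control muscle, again without overlap.

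Other genes of the pathway followed less uniformly. Of 44 listed genes for glucose uptake, the other isoforms, regulators, glycogen use, and pyruvate and lactate transport, 32 were tested, and 22 had a higher mean in transgenic muscle, with a median log2 fold change of 0.09. Hk2, the muscle hexokinase that feeds glucose into the pathway, rose from 392 ± 37 to 557 ± 24 CPM (SD, n = 3), a log2 fold change of 0.51 ± 0.09 (limma adjusted p = 0.00565). Its transgenic libraries lay at 585, 544 and 543 CPM and its controls at 358, 387 and 431 CPM. Bpgm, which makes 2,3-bisphosphoglycerate beside the PGK step, fell from 168 ± 21 to 89.1 ± 7.6 CPM (-0.91 ± 0.14, limma adjusted p = 0.0023). No other gene of the list passed. In Hk2 the control group HFD-WT was itself below WT-HFD, at 392 against 552 ± 31 CPM (-0.50 ± 0.09, limma adjusted p = 0.00388).

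The untreated HFD groups, HFD-WT and WT-HFD, were set side by side because both are wild-type mice on HFD from different parts of the study. The comparison shares HFD-WT with that of the transgene, so the 2 are not independent. Of the 10 genes 8 had a higher mean in HFD-WT, beside 49.7% of all genes (Tpi1 and Eno3, both near 0, changed sign when libraries were rescaled to an equal sum), and none passed the threshold, beside 4.46% of all genes. Aldoa lay at 12994, 14529 and 14422 CPM in HFD-WT and at 12769, 10982 and 9664 CPM in WT-HFD, without overlap (0.34 ± 0.16, limma adjusted p = 0.235), and it was the only 1 of the 10 without overlap (11.8% of all genes in this direction). Pkm and Gpi1 also stood at an unadjusted p under 0.05 (limma adjusted p = 0.237 and 0.236), 3 of 10 in all against 20.2% of all genes. The median was 0.05. Gapdh and Pgk1 had the lower means, and without them the median of the remaining 8 was 0.15. Pfkfb3, which makes an activator of phosphofructokinase, was at 651 against 267 CPM (1.38 ± 0.37, limma adjusted p = 0.0406), and Pfkfb1, the form named for liver and muscle, at 62.2 against 96.5 CPM (-0.59 ± 0.15, limma adjusted p = 0.0367). The clock score was -1.93 to -1.43 in HFD-WT and -3.93 to -3.43 in WT-HFD, without overlap. Slow fibre genes had 0 of 11 above 0 with a median of -0.45, and fast fibre genes 8 of 13 with 0.10. Matrix genes of fibroblasts had 7 of 10 with 0.35 (2 called higher), and endothelial markers 4 of 10 with -0.09 (1 called lower). Heat shock genes had 3 of 12 with -0.24 (1 called lower). Of 16 clock genes 2 were called higher and 2 lower, and the part of these lists was not tested.

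Diet alone was compared in WT-HFD and WT-NC. The mean was higher on HFD in 5 of the 10 genes, beside 49.2% of all genes, and lower in 5 (Tpi1 and Pgam2, both near 0, changed sign when library totals left out the most abundant genes), and the median log2 fold change was 0.001. None passed the threshold, beside 0.0479% of all genes, and none stood at an unadjusted p under 0.05 (9.53% of all genes). Pfkm had the lowest value: its libraries lay at 4243, 4402 and 4141 CPM on HFD and at 4342, 5051 and 5355 CPM on chow (-0.20 ± 0.12, limma adjusted p = 0.600). The groups overlapped by 1 library. Gapdh had the highest, at 7.05, 4.07 and 4.28 CPM on HFD and 2.85, 3.83 and 4.05 CPM on chow (0.40 ± 0.24, limma adjusted p = 0.606), and was the only 1 of the 10 without overlap (6.32% of all genes in this direction). The remaining 8 lay between -0.09 (Gpi1) and 0.11 (Ldha). Leaving out WT-NC replicate 1 or WT-HFD replicate 3, the low libraries, moved the values most, and over all libraries left out in turn the median ran from -0.15 to 0.14. None of the other genes of the pathway passed the threshold here. Adipocyte markers had 8 of 10 above 0 with the largest median of the lists, 0.85. Their summed level was 1248 to 1574 CPM on HFD and 1058 to 1878 CPM on chow. Matrix genes of fibroblasts had 10 of 10 above 0 (median 0.34), leukocyte markers 9 of 9 (0.32) and endothelial markers 9 of 10 (0.19). Heat shock genes had 11 of 12 (0.20), immediate early genes 12 of 16 (0.20) and the muscle-defining genes 2 of 10 (-0.06). No gene of these lists was called, and their part was not tested.

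AQ on HFD (WT-HFD-AQ against WT-HFD) came with a lower mean in 9 of 10 genes, where 49.5% of all genes were lower, with a median log2 fold change of -0.17. None passed the threshold (0.0479% of all genes). Ldha lay at 1868, 1895 and 1839 CPM with AQ and at 2545, 2198 and 1968 CPM without, the only gene of the 10 without overlap (8.91% of all genes in this direction). Its log2 fold change was -0.25 ± 0.14 (limma adjusted p = 0.505). The SD of Ldha was 28.0 CPM with AQ and 290 CPM without, so the spread lay on the untreated side. Pfkm was the exception in direction (0.04 ± 0.12, limma adjusted p = 0.949). With single libraries left out the median ran from -0.31 (without WT-HFD replicate 3) to -0.06 (without WT-HFD replicate 1). Of the other lists, the fast fibre genes had 1 of 13 above 0 with a median of -0.15, the muscle-defining genes 1 of 10 with -0.12, matrix genes of fibroblasts 1 of 10 with -0.76, leukocyte markers 1 of 9 with -0.28, and adipocyte markers 2 of 10 with -0.43. Immediate early genes had 0 of 16 above 0 with a median of -0.55, and heat shock genes 0 of 12 with -0.39. No gene of these lists passed the threshold. Summed levels with and without AQ were 1536 to 2043 against 1961 to 3617 CPM for the matrix genes, 101 to 107 against 114 to 141 CPM for leukocyte markers, 1452 to 1504 against 1248 to 1574 CPM for adipocyte markers, 359 to 406 against 384 to 972 CPM for immediate early genes and 1029 to 1102 against 1116 to 1643 CPM for heat shock genes. WT-HFD replicate 2 stood apart in the immediate early and heat shock genes, with median deviations of 0.72 and 0.52 on the log2 scale from each gene's mean over the 18 libraries and single genes up to 4.401 and 4.397. Without it the median of the 10 glycolytic genes was -0.15. The part of these markers in the result was not tested.

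AQ on chow (WT-NC-AQ against WT-NC) divided the genes. Aldoa lay at 14910, 14330 and 14363 CPM with AQ and at 10019, 12569 and 12558 CPM without (0.32 ± 0.16, limma adjusted p = 0.335). Pkm lay at 2512, 2495 and 2552 CPM against 1763, 2474 and 2332 CPM (0.22 ± 0.12, limma adjusted p = 0.403), and Gpi1 at 689, 681 and 671 CPM against 494, 635 and 662 CPM (0.20 ± 0.11, limma adjusted p = 0.406). In these 3 genes the groups did not overlap, as in 10.9% of all genes in this direction. Tpi1 and Pgk1 had lower means with AQ (-0.20 ± 0.16 and -0.19 ± 0.17, limma adjusted p = 0.586 and 0.639). The 10 genes had a median of 0.05 with 6 above 0 (48.3% of all genes), and none passed the threshold, which 1.11% of all genes did. Slc2a1, the basal glucose transporter, was the only other gene of the pathway to pass. It rose from 8.64, 11.48 and 12.01 CPM to 18.1, 18.4 and 15.1 CPM (0.64 ± 0.14, limma adjusted p = 0.0422). Leukocyte markers had 9 of 9 above 0 with a median of 0.47 (2 called higher). Endothelial markers had 9 of 10 with 0.20 (2 called higher), and matrix genes of fibroblasts 9 of 10 with 0.20 (none called). Of 16 clock genes 2 were called higher and 1 lower, and the part of these lists was not tested. With single libraries left out the median of the 10 genes ran from -0.04 to 0.10.

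Diet was compared once more with AQ on both sides, and this was the only 1 of the 7 comparisons in which any of the 10 genes passed the threshold. In WT-HFD-AQ against WT-NC-AQ, Aldoa and Gpi1 fell, 2 of 10 beside 10.6% of all genes in either direction and 5.68% lower. Of the 1324 genes called, 46.3% were higher, and after rescaling to equal sums 69.0% of 1208 were. Aldoa lay at 9497, 10787 and 9067 CPM on HFD with AQ and at 14910, 14330 and 14363 CPM on chow with AQ, a log2 fold change of -0.57 ± 0.16 (limma adjusted p = 0.0247). Gpi1 lay at 503, 546 and 470 CPM against 689, 681 and 671 CPM (-0.43 ± 0.11, limma adjusted p = 0.0196). Both gaps were wider than the spread within either group. Pkm (-0.34 ± 0.12, limma adjusted p = 0.0792) and Pfkm (-0.27 ± 0.12, limma adjusted p = 0.149) missed the threshold. In 6 of 10 genes, Gpi1, Pfkm, Aldoa, Pgam2, Eno3 and Pkm, all HFD libraries lay below all chow libraries, as in 17.4% of all genes. Ldha (-0.09), Tpi1 (0.02), Gapdh (0.14) and Pgk1 (0.15) overlapped, and the median of the 10 was -0.20.

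Both calls were lost in some fits with a library left out. Without WT-NC-AQ replicate 1 or 3, or WT-HFD-AQ replicate 1 or 3, neither gene passed, with limma adjusted p-values up to 0.113 for Aldoa and 0.0947 for Gpi1, while the log2 fold changes stayed between -0.65 and -0.52 and between -0.48 and -0.37. With each library's GC trend removed, an alternative chosen after the data were seen, Gpi1 passed and Aldoa did not. The copies Aldoart1 and Aldoart2 fell with Aldoa, by 0.57 and 0.63 on the log2 scale (limma adjusted p = 0.000918 and 0.0017). The clock score was -4.65 to -3.96 in WT-HFD-AQ and -1.62 to -0.24 in WT-NC-AQ, fast fibre genes had a median of -0.11 with 4 of 13 above 0, the muscle-defining genes one of -0.22 with 1 of 10 above 0 (1 called lower), matrix genes of fibroblasts one of -0.50 with 3 of 10 above 0 (1 called higher and 4 lower), leukocyte markers one of -0.40 with 1 of 9 above 0 (1 called lower), and immediate early genes one of -0.61 with 1 of 16 above 0 (3 called lower). Of 16 clock genes 4 were called higher and 4 lower. The part of all these lists in these values was not tested.

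Among the other genes of the pathway, the same comparison called 6 higher and 6 lower of 32, beside 10.6% of all genes called in either direction. Lower on HFD with AQ were Slc2a1 (11.2 against 17.2 CPM), Hk1 (11.2 against 15.2 CPM), the phosphofructokinase isoform Pfkp (5.0 against 8.77 CPM), Pfkfb3 (220 against 597 CPM), Pygm, the muscle glycogen phosphorylase (7315 against 10839 CPM), and Slc16a3, the lactate exporter MCT4 (308 against 453 CPM). Higher were Pfkfb1 (94.7 against 59.0 CPM), Fbp2, the muscle fructose bisphosphatase that reverses the PFK step (68.4 against 42.6 CPM), Slc16a1, the monocarboxylate transporter MCT1 (87.7 against 53.4 CPM), Mpc2, a subunit of the mitochondrial pyruvate carrier (234 against 180 CPM), and the pyruvate dehydrogenase subunits Pdha1 (1323 against 962 CPM) and Pdhb (207 against 150 CPM). The limma adjusted p of these 12 genes ran from 0.00948 (Fbp2) to 0.0385 (Hk1).

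Whether the response to AQ differed between diets was tested with the interaction term. None of the 10 genes passed, beside 0.711% of all genes. A value below 0 stood in 9 of 10 (48.7% of all genes), of which Pfkm and Tpi1, both near 0, changed sign when libraries were rescaled to an equal sum, and the median was -0.20. Aldoa (-0.50 ± 0.22, limma adjusted p = 0.313) and Gpi1 (-0.33 ± 0.16, limma adjusted p = 0.343) stood at an unadjusted p under 0.05, 2 of 10 beside 14.1% of all genes. Slc2a1 passed the threshold (-0.99 ± 0.20, limma adjusted p = 0.0349). These comparisons share their libraries, so the values for AQ on chow, AQ on HFD and the interaction are not independent. For the interaction, matrix genes of fibroblasts had 2 of 10 above 0 with a median of -0.9996 (3 called lower). Adipocyte markers had 1 of 10 with -0.96, leukocyte markers 0 of 9 with -0.74 and immediate early genes 0 of 16 with -0.64. Fast fibre genes had 2 of 13 with -0.13 and slow fibre genes 7 of 11 with 0.06. The part of these lists was not tested.

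**Figure D5:**
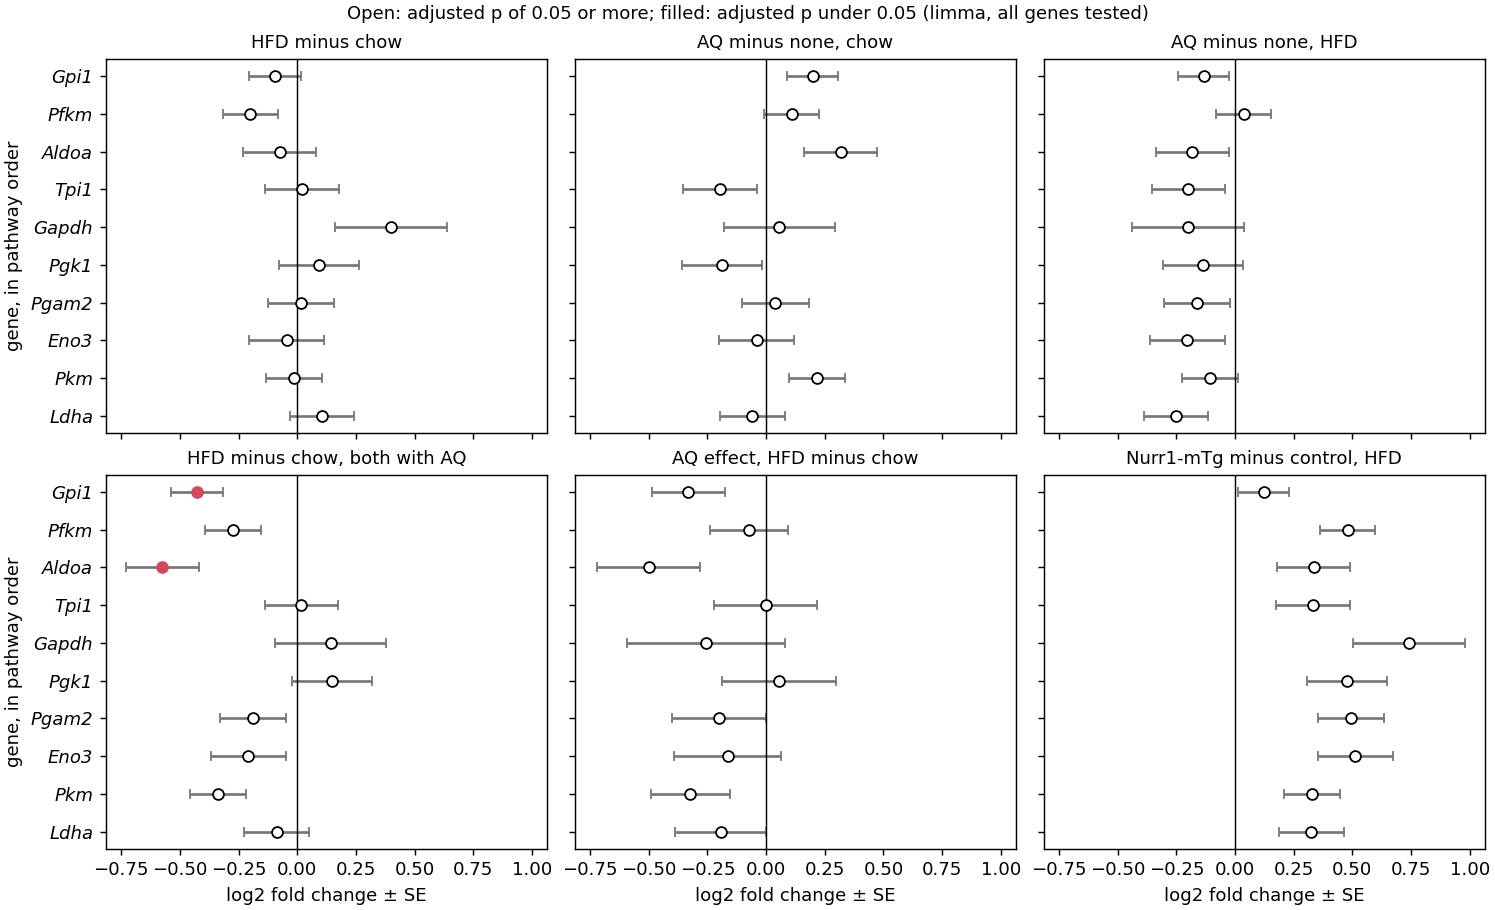
Log2 fold change ± SE of each gene, in pathway order, in 6 comparisons, where the vertical line marks 0 and filled points have a limma adjusted p under 0.05. Only Gpi1 and Aldoa under HFD minus chow, both with AQ, are filled, and all 10 points lie right of 0 for the transgene.

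Among themselves the genes varied to different degrees. Over the 18 libraries the highest value was 4.17 times the lowest in Gapdh, 2.48 times in Pgam2, 2.03 times in Aldoa, 1.99 times in Pgk1 and 1.56 times in Gpi1. Eno3 was most like the mean of the other 9 genes (Pearson r 0.95 over 18 libraries on the log2 scale), followed by Ldha and Pgam2 (both 0.94), and Gapdh was least like it (0.67). Aldoa and Pkm were the pair most alike (0.96), and Gpi1 and Gapdh the pair least alike (0.34). These correlations are descriptions: the points share libraries, scaling and 6 groups, and the transgenic group stands apart from the others.

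Of 7796 other genes with a mean of at least 10 CPM, the 10 whose pattern over the 18 libraries was most like the mean of the glycolytic genes were Pfn1 (Pearson r 0.96), Gpd1 (0.96), Tcf25 (0.94), Ift122 (0.93), Aimp2 (0.92), Sypl2 (0.91), Actc1 (0.91), Fam213b (0.91), Wfdc1 (0.90) and Obsl1 (0.89). Pfn1 codes for the actin-binding protein profilin and Actc1 for cardiac actin. Gpd1, the cytosolic glycerol 3-phosphate dehydrogenase, draws on the triose phosphate that TPI also uses. Gpd1 lay at 1421, 1586 and 1516 CPM in transgenic muscle and at 848, 1262 and 1224 CPM in its controls. The groups did not overlap, as in 6.99% of all genes in this direction, and the limma adjusted p was 0.381 (0.46 ± 0.17 on the log2 scale). Gpd1 was picked by its likeness over libraries that include these, so the gap is not separate from that choice.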

How the data were processed

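The authors deposited a table of CPM values, 12558 gene symbols by 18 libraries. TopHat2 2.0.12, edgeR and the builds GRCm38 and mm10 are named in the submitters' processing notes, and reads were single-end of 50 bases, per the labels' protocols. For the counting tool, annotation, strand and handling of multiple matches: not given in the sources used here. Columns of the deposited table summed to 929993 to 1071538, so the unit is a signal that differs from CPM by a scaling. Dividing each library by its own step returned whole reads for 100% of values (tolerance 1e-06), and 3 reads were worth 0.191 to 0.277 CPM, a limit that covers counting error only.

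The test was limma 3.58.1 in R 4.3.3 (trend, two-sided) on log2(CPM + 1), a scale that understates the change of low genes. All 6 groups entered a single fit without covariates, and the filter, 1 CPM or more in 3 libraries or more, left 12524 genes. Benjamini-Hochberg adjustment was over all of these, with a threshold of 0.05. The limma p-values weigh a difference between groups against the spread between libraries, estimated over all 6 groups. Exact permutation tests over libraries stand beside single genes. edgeR 4.0.16 and DESeq2 1.42.0 on recovered reads were alternatives, with other pseudocounts, filters, scalings, variance priors, a replicate block and each library left out. The fit was tested on simulated data.

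The 10 genes, the lists and the tests were chosen with earlier results of these data known. All 10 genes are named for the transgene and for diet with AQ on both sides, and only some of them in the other comparisons. Named too are the other pathway genes past the threshold, the other isoforms, and the 10 most similar patterns without unnamed gene models. Symbols were matched to GENCODE mouse M21, 12024 directly and 473 through older symbols. Windows of 50 bases were aligned to its transcripts with bwa 0.7.19, using the principal transcript, and CPM per kb uses its length. Start-site windows are from RefSeq. Of 45 pairs of same-numbered libraries, 8 had a correlation of their deviations over 0.1 (range -0.214 to 0.306). Pairs with different numbers were not computed, so these values cannot show whether numbers pair libraries. The main fit did not take them as pairs.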

Additional observations from a re-analysis of the deposited data

How the results depend on the processing

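The 10 genes are few, and with 3 libraries a group the counts of calls turn on single libraries. For the transgene, 0 of the 10 genes passed in the fit reported and without any 1 library, 3 passed after rescaling to equal sums (Pfkm, Pgam2 and Eno3) and with DESeq2, and 1 (Pfkm) with library totals that left out the 10 genes and the 100 most abundant others, with no trend and with robust eBayes. For HFD against chow with AQ on both sides, 2 passed in the fit reported, 4 with DESeq2 (Gpi1, Pfkm, Aldoa and Pkm), 3 in a fit with only the groups compared (Gpi1, Aldoa and Pkm), 1 after removal of the GC trend, and 0 to 2 with a library left out. For the untreated HFD groups DESeq2 called 1 (Aldoa, adjusted p = 0.0379). The cause of these changes was not tested.

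The median over the 10 genes with a library left out ran from -0.15 to 0.14 for diet, -0.31 to -0.06 for AQ on HFD, -0.04 to 0.10 for AQ on chow, -0.23 to -0.18 for diet under AQ, -0.33 to -0.08 for the interaction, 0.32 to 0.49 for the transgene and -0.01 to 0.17 for the untreated HFD groups. Of 1460 recomputed values of single genes, 70 changed sign, none of them past the threshold. With the replicate block, 2 of the 10 genes passed for diet under AQ and 0 in the other comparisons, so the block changed no call, and genes called over the whole table were 49 for AQ on HFD instead of 6 and 12 for diet instead of 6.

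Over the whole table, calls depended on the setting, and the shares printed beside the 10 genes move with them. With a library left out, 0 to 40 genes were called for diet, 0 to 224 for AQ on HFD, 13 to 113 for AQ on chow, 573 to 1130 for diet under AQ (1324 in the fit reported), 3 to 103 for the interaction, 43 to 72 for the transgene and 145 to 748 for the untreated HFD groups. DESeq2 called 47 genes for diet (6 in the fit reported), 143 for AQ on HFD (6), 280 for AQ on chow (139), 229 for the interaction (89) and 171 for the transgene (75). Rescaling gave 3, 43 and 32 for diet, AQ on chow and the interaction, and the share of higher calls went from 75.5% to 65.1% for AQ on chow, from 17.98% to 40.6% for the interaction and from 62.2% to 44.8% for the untreated HFD groups. Fits with only the groups compared called 2 for diet, 1 for AQ on HFD, 12 for AQ on chow and 96 for the untreated HFD groups (559). Removing the GC trend gave 22 for AQ on chow, 19 for the interaction and 268 for the untreated HFD groups, and no trend gave 2, 52 and 31 for diet, AQ on chow and the interaction.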
